A study of Homo sapiens with 48 samples.

Results

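Iron and zinc handling genes were read here as 9 members of a table of 14685 genes. TFRC, SLC11A2 and SLC39A14 take part in metal uptake. FTH1 and FTL make up ferritin, and IREB2 and ACO1 encode the iron regulatory proteins. SLC30A1 and MT2A export and bind zinc. The members were chosen by gene symbol, and all 9 had a row in the counts of every library. The choice was made with earlier T-REX against control results of these data in view, so differences between T-REX and its controls, and their change over time, are given as a description, with calls and with no p-value for a gene. Comparisons among controls, and of times within an arm, share libraries with those results, so their p-values are also a description.

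The cells were HEK293T, a line derived from human embryonic kidney, that all carried a transfected plasmid for NCBP1, the larger protein of the complex that binds mRNA caps in the nucleus, fused to the Halo tag. In T-REX, the photocaged precursor Ht-PreHNE is bound by the Halo tag and light releases the reactive lipid aldehyde HNE beside the fused protein. RNA was taken at 3 h, 6 h and 12 h from 4 arms of 4 libraries each: T-REX, light alone, probe alone (precursor and no light) and DMSO (vehicle and no light). The methods list both precursor and light for light alone, so what set that arm apart from T-REX is not given in the sources used here. Every arm carried the plasmid, so no comparison here is with untransfected cells.

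The 48 libraries held 23952455 to 37099535 counts each, and no gene had fewer than 2 counts in any library. Of 6 HEK293T markers, all but PAX2 were in the table, 5 genes at 4.39 CPM or more in every library. CPM are counts scaled to a common library size and composition. Of 5 markers of other cell types, only COL1A1 was present, at 2.13 to 6.07 CPM, and PTPRC, ALB, HBB and PECAM1 had no row. Having no row is not a measured absence. NCBP1, the targeted gene, stood between 30797 and 92201 CPM, and its counts do not separate plasmid from endogenous transcripts. At 12 h the log2 fold change of NCBP1 in T-REX was 0.51 ± 0.128 (SE) against light alone, -0.04 ± 0.128 against probe alone and 0.73 ± 0.129 with DMSO as the control, and the DMSO value alone was called.

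Cells hold iron in a narrow range through the iron regulatory proteins, which bind a hairpin called the iron-responsive element. In the 3′ untranslated region of TFRC mRNA, binding protects the transcript from decay, and in the 5′ untranslated region of the ferritin mRNAs binding blocks translation, so that iron-poor cells take up more iron and store less. Zinc is sensed by the transcription factor MTF1, which binds metal response elements in the promoters of metallothionein genes and SLC30A1 and raises their transcription. Messenger RNA counts can reflect the TFRC and MTF1 arms of this control, but do not separate transcription from decay. They do not report the translational arm on ferritin.

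Matches to a strict pattern of the iron-responsive element are shown first, because TFRC carried the largest T-REX difference of the 9 members at 12 h. They need not be all such elements of these mRNAs, and their part in the TFRC difference was not tested. A search of GENCODE 29 transcripts for a C, 5 bases, the loop CAGTGN (with N not G) and 5 bases that pair with the first 5 found 4 elements in TFRC-201 and 1 in FTL-201. FTH1 and SLC39A14 were left out of this search and of the promoter search that follows, so nothing is reported for them. All 4 of TFRC lay in exon 19 of 19, in the 3′ untranslated region on the minus strand (GRCh38), and that of FTL lay in exon 1 of 4, in the 5′ untranslated region. Capitals mark the unpaired C and the 6-base loop.
TFRC, chr3:196050980-196051005, minus strand: ttatCggaagCAGTGCcttccataat
TFRC, chr3:196050576-196050601, minus strand: ttatCgggagCAGTGTcttccataat
TFRC, chr3:196050511-196050536, minus strand: gtatCggagaCAGTGAtctccatatg
TFRC, chr3:196050464-196050489, minus strand: ttatCgggaaCAGTGTttcccataat
FTL, chr19:48965337-48965362, plus strand: cttgCttcaaCAGTGTttggacggaa

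The printed windows of the last 3 TFRC elements were 39 and 21 bases apart, and the first stood 378 bases before them. Such a match was held by 1.09% of 19702 protein-coding genes in the same annotation. The strict pattern found no match in the longest principal transcripts of SLC11A2, IREB2, ACO1, SLC30A1 and MT2A. It required the loop together with full pairing of the bases on either side, so an element with imperfect pairing would be missed. Matches in other transcripts of these genes are not reported. The result therefore does not show that these mRNAs lack an iron-responsive element.

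For zinc, RefSeq promoter windows (GRCh38.p14, 250 bases before to 50 after the start site) were searched on both strands for the metal response element core, TGCACNC or TGCGCNC. MT2A held 8 matches at chr16:56608334-56608633 on the plus strand, SLC30A1 held 2 at chr1:211579112-211579411 on the minus strand, TFRC held 3, of which a pair overlapped, and 1 of 2 IREB2 windows held 1. Of 35116 windows, 29.6% held at least 1 match and 0.0199% held 8 or more. The windows of ACO1, SLC11A2 and FTL held no match. Of the zinc-responsive genes, 3 sites of MT2A and both of SLC30A1 are printed, each read on the strand of the match, with the core in capitals and the position of its base nearest the upstream end of the window.
MT2A, 54 bases before the start: ggctttTGCACTCgtcccg
MT2A, 88 bases before the start: gctgccTGCACACgccccg
MT2A, 168 bases before the start: cggctcTGCACACgggccg
SLC30A1, 49 bases before the start: ttgcttTGCACTCggaacc
SLC30A1, 25 bases after the start: ggcagcTGCACTCggcccg

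Levels were compared between genes per length, as CPM per kilobase of the longest principal transcript. Ferritin light chain mRNA was the most abundant, with a median of 457 for FTL over the 48 libraries, followed by FTH1 at 312, with overlapping ranges. TFRC stood at 70.3 and IREB2 at 53.2, also overlapping. Next came SLC30A1 at 20.8, SLC39A14 at 17.3 and SLC11A2 at 16.8, and the ranges of these 3 overlapped. MT2A had a median of 7.70 and ACO1 of 6.42, and their ranges overlapped too.

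**Figure D1:**
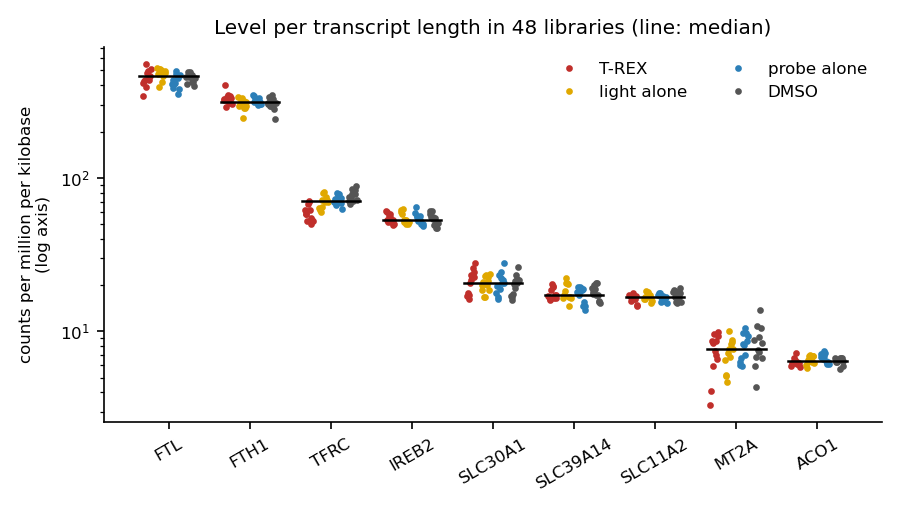
Level of each member in CPM per kilobase (log axis) in 48 libraries, coloured by arm, with a line at the median. FTL and FTH1 lay far above the rest, and MT2A spread from 3.33 to 13.9 while ACO1 spread from 5.68 to 7.43.

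In unscaled depth these levels rested on medians of 11742 counts per library for FTL, 11269 for FTH1, 10774 for TFRC and 10084 for IREB2, but of only 177 for MT2A. The members also differed in how tightly replicates agreed. The median coefficient of variation over the 12 groups of 4 was 3.96% for IREB2, 5.41% for TFRC and 18.4% for MT2A. The widest group was MT2A in T-REX cells at 3 h, at 46.01%.

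TFRC, the transferrin receptor that carries iron-loaded transferrin into the cell, was lower in T-REX cells than in each control at 3 h, 6 h and 12 h by its fitted fold change. It was the single member called lower against at least 2 of 3 controls, at 3 h and at 12 h, as were 0.769% and 0.912% of all genes at these times. The difference was largest at 12 h, at 23.6% below probe alone, 26.7% below light alone and 34.3% below DMSO.

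At 12 h the 4 T-REX libraries held 257, 279, 272 and 269 CPM of TFRC. Light alone held 367, 382, 366 and 355 CPM, and probe alone held 359, 353, 375 and 318 CPM. DMSO held 399, 423, 450 and 364 CPM. Each of the 12 control libraries lay above all 4 T-REX libraries, so the groups did not overlap. The share of all genes that lay apart in this way was not counted, here or in later comparisons. TFRC gave log2 fold changes of -0.45 ± 0.0592 (SE, n = 4 against 4) against light alone, -0.39 ± 0.0592 against probe alone and -0.61 ± 0.0592 with DMSO as the control. All 3 were called at an adjusted p of at most 0.05. Of all genes, edgeR called 1.29% with light alone as the control, 0.701% with probe alone and 10.9% with DMSO, and 1.4% in the same direction against at least 2 controls. RNA was taken from whole wells, so fewer cells that express a gene and less RNA of it per cell cannot be told apart. Of the 14685 genes, 70 had a more negative value than TFRC in the least negative of their 3 comparisons at 12 h.

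At 3 h TFRC stood at 313, 296, 295 and 265 CPM in T-REX cells and at 325, 315, 305 and 328 CPM in light alone. Probe alone held 356, 370, 349 and 339 CPM, and DMSO held 363, 381, 346 and 384 CPM. T-REX libraries lay below all libraries of probe alone and DMSO and overlapped those of light alone. The values were -0.12 ± 0.0488 against light alone, which was not called, -0.26 ± 0.0488 against probe alone and -0.33 ± 0.0488 with DMSO as the control, which were called. The shares of all genes called were 0.197%, 1.05% and 5.99% in that order, and 0.947% against at least 2 controls. The call against probe alone was lost without T-REX replicate 4, without probe alone replicate 1 or 2, and when the 2 arms were fitted alone, so the count against at least 2 controls fell to 0 without any 1 of these libraries.

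At 6 h TFRC was called by edgeR against no control, and by DESeq2 against DMSO alone. Its unadjusted edgeR p was at most 0.05 in each comparison, a description only, since TFRC was chosen with T-REX results in view. T-REX cells held 347, 356, 362 and 316 CPM, light alone 368, 406, 416 and 355, probe alone 407, 395, 403 and 402, and DMSO 402, 429, 359 and 410. T-REX libraries lay below all of probe alone and overlapped light alone and DMSO. On the log2 scale T-REX differed from light alone by -0.17, from probe alone by -0.22 and from DMSO by -0.21, each ± 0.0591. At this time 0.218%, 0.109% and 0.415% of all genes were called against these controls, and 0.136% against at least 2 of them.

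**Figure D2:**
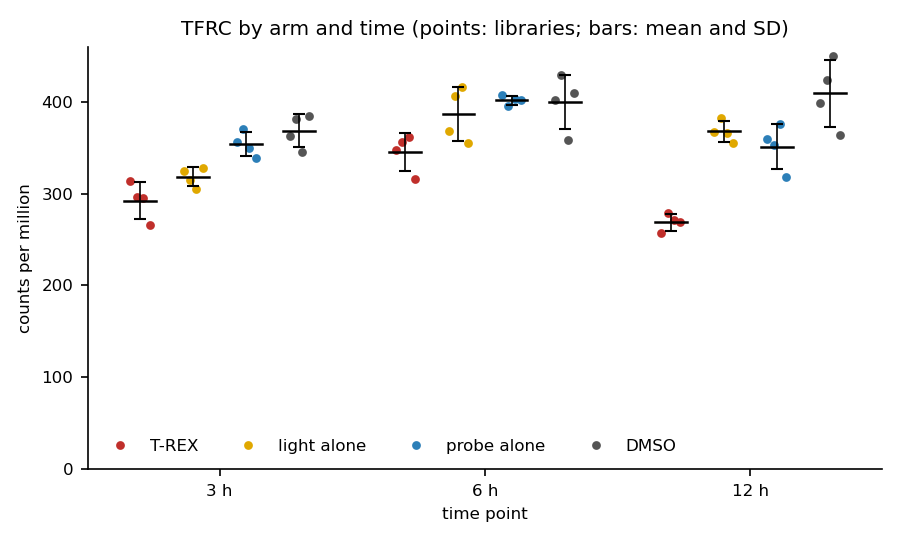
TFRC in CPM in each library (points), by arm and time, with the mean and SD of each group of 4. At 12 h the T-REX points, 257 to 279 CPM, lie below every control point, of which the lowest is 318 CPM.

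The total level of NCBP1, plasmid and endogenous transcripts together, moved with some of these comparisons. At 12 h NCBP1 stood at 51945 to 63933 CPM in T-REX. It stood at 34589 to 49371 CPM in light alone and 30797 to 40599 CPM in DMSO, both below every T-REX library, and at 52800 to 74043 CPM in probe alone, which overlapped T-REX. At 3 h NCBP1 was called higher in T-REX than in DMSO (0.50 ± 0.125), and at 6 h higher than in light alone (0.80 ± 0.137). Over the 48 libraries the log2 CPM of NCBP1 and TFRC, centred within each time point, had a Pearson r of -0.479, as a description of libraries that share arms and depth. The part of the NCBP1 level in the TFRC differences was not tested.

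Controls also differed among themselves. At 12 h TFRC was lower in probe alone than in DMSO, with a log2 fold change of -0.22 ± 0.059 (edgeR adjusted p = 0.0315), where 5.11% of all genes were called. The 2 groups overlapped, since the lowest DMSO library (364 CPM) lay below the highest of probe alone (375 CPM). These libraries also entered the T-REX results in view when TFRC was chosen, so the TFRC p-value is a description. NCBP1 was higher in the same comparison, by 0.77 ± 0.129 (edgeR adjusted p = 0.00541), and its part in the TFRC value was not tested. The TFRC call was lost without probe alone replicate 1, 2 or 4 and without DMSO replicate 2 or 3. Light alone was below DMSO by -0.21 ± 0.0488 at 3 h (edgeR adjusted p = 0.257) and by -0.16 ± 0.059 at 12 h (edgeR adjusted p = 0.403), neither called. For light alone against DMSO 0.00681% of all genes were called at 3 h, 0.00681% at 6 h and 0.0136% at 12 h, and for probe alone against DMSO 0.00681% at 3 h and 0.0272% at 6 h. No other member was called by edgeR for light alone or probe alone against DMSO at any time, and light alone was not compared with probe alone. At an unadjusted p of at most 0.05, counting TFRC, light alone against DMSO held 2, 0 and 1 members and probe alone against DMSO 0, 1 and 3 at the 3 times.

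Over time the arms gave different values for TFRC. From 3 h to 12 h it rose in light alone, by 0.21 ± 0.0577 on the log2 scale (edgeR adjusted p = 0.00325), and in DMSO, by 0.15 ± 0.0576 (edgeR adjusted p = 0.0343). In T-REX cells the value was -0.12 ± 0.0578 (edgeR adjusted p = 0.0888) and in probe alone -0.01 ± 0.0576 (edgeR adjusted p = 0.91). The change of the T-REX difference from 3 h to 12 h was -0.33 ± 0.0817 with light alone as the control, -0.11 ± 0.0816 with probe alone and -0.27 ± 0.0816 with DMSO, and none was called. The DMSO rise was lost without DMSO 3 h replicate 1 or 3 or DMSO 12 h replicate 2 or 3. Its p-value is a description, since the DMSO libraries entered the T-REX results in view when TFRC was chosen.

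The 3 genes whose log2 CPM, centred within each time point, followed TFRC most closely over the 48 libraries were SDC2, a cell-surface heparan sulfate proteoglycan (Pearson r = 0.899), PAICS, an enzyme of purine synthesis (r = 0.884), and PLOD2, a collagen lysyl hydroxylase (r = 0.873). These points share libraries, arms and depth, and r is given as a description. At 12 h their T-REX log2 fold changes, with the controls in the order light alone, probe alone, DMSO, were -0.41, -0.25 and -0.46 for SDC2, -0.25, -0.13 and -0.46 for PAICS and -0.62, -0.64 and -0.79 for PLOD2. Of the other members, SLC11A2 had the highest r with TFRC.

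SLC11A2 (DMT1), which moves iron across the endosomal membrane after transferrin delivers it, was called in none of the 9 T-REX comparisons. Its T-REX values ran from 60.5 to 73.6 CPM over the 3 times and overlapped every control group. The largest value, against DMSO at 12 h, was -0.14 ± 0.0663. At 12 h T-REX held 67.8, 71.2, 61.8 and 60.5 CPM and DMSO held 69.8, 74.0, 79.4 and 64.3 CPM.

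SLC39A14 (ZIP14), an importer of zinc and of iron not bound to transferrin, was called in none of the 9 T-REX comparisons. Its values stood apart from some controls, and the share of all genes that did so was not counted. At 3 h T-REX held 78.5, 78.0, 75.0 and 74.4 CPM, probe alone 83.9, 90.5, 79.5 and 85.4, and DMSO 89.2, 83.4, 81.5 and 92.3. T-REX lay below all libraries of both. The log2 fold change was -0.13 ± 0.053 against probe alone and -0.18 ± 0.0531 with DMSO as the control, and neither was called. The DMSO value passed in 6 alternatives, DESeq2 among them.

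At 12 h the order against probe alone was turned. T-REX held 76.2, 79.8, 76.6 and 79.6 CPM and probe alone 67.7, 71.5, 67.9 and 63.7 CPM, with no overlap. The log2 fold change was 0.20 ± 0.0572, not called here and called in 4 alternatives. The change of the T-REX difference from 3 h to 12 h was 0.35 ± 0.077 against probe alone, which was called where 0.0681% of all genes were. It was 0.13 ± 0.077 against light alone and 0.26 ± 0.077 against DMSO, neither called, where 0.0204% and 0.00681% of all genes were called. Leaving out single libraries of the 16 behind it ended the call in 14 cases. Without T-REX 3 h replicate 1 or probe alone 3 h replicate 3 it was kept.

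The T-REX level itself was not called between the times. SLC39A14 fell from 3 h to 12 h in probe alone, by 0.32 on the log2 scale (SE 0.0545, edgeR adjusted p = 3.27e-06), and in DMSO, by 0.23 (SE 0.0544, edgeR adjusted p = 0.000642). In T-REX the value was 0.03 ± 0.0545 (edgeR adjusted p = 0.698) and in light alone -0.10 ± 0.0544 (0.149).

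Ferritin stores iron in a shell of heavy chains, which oxidise it, and light chains, which help to lay down the mineral core. FTH1 was called higher in T-REX than in DMSO at 12 h, and FTL was called in no T-REX comparison. At 12 h FTH1 stood at 406, 416, 408 and 371 CPM in T-REX and at 364, 345, 295 and 377 CPM in DMSO. The groups overlapped, with T-REX replicate 4 below DMSO replicate 4. T-REX over DMSO gave 0.21 ± 0.0588 on the log2 scale. It was 0.15 ± 0.0588 against light alone and 0.06 ± 0.0588 against probe alone, not called. Over DMSO at 12 h, probe alone gave 0.15 ± 0.0589 and light alone 0.06 ± 0.0589, neither called. The 12 h DMSO mean, 345 CPM, was the lowest of the 12 FTH1 groups. The DMSO call was lost without T-REX replicate 1, 2 or 3, and when the 2 arms were fitted alone.

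FTH1 shares its sequence with 25 annotated pseudogenes, of which 1, FTH1P3, was in the table with 0.816% of the FTH1 count, so reads could be split among copies. FTH1 also overlaps BEST1 on the opposite strand, which stood at 2.36 to 9.31 CPM, and whether the counting used strand is not given in the sources used here. FTL has 16 annotated pseudogenes, none in the table.

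FTL was 397, 383, 404 and 451 CPM in T-REX at 12 h and 308, 392, 334 and 407 CPM in probe alone. These overlapped, and the log2 fold change was 0.18 ± 0.0711, not called. At 3 h FTL was 298, 361, 376 and 378 CPM in T-REX and 457, 416, 450 and 342 CPM in light alone, with overlap, and the log2 fold change was -0.24 ± 0.0925, not called. The FTH1 to FTL count ratio within a library was 0.984 ± 0.145 (SD, n = 48).

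**Figure D3:**
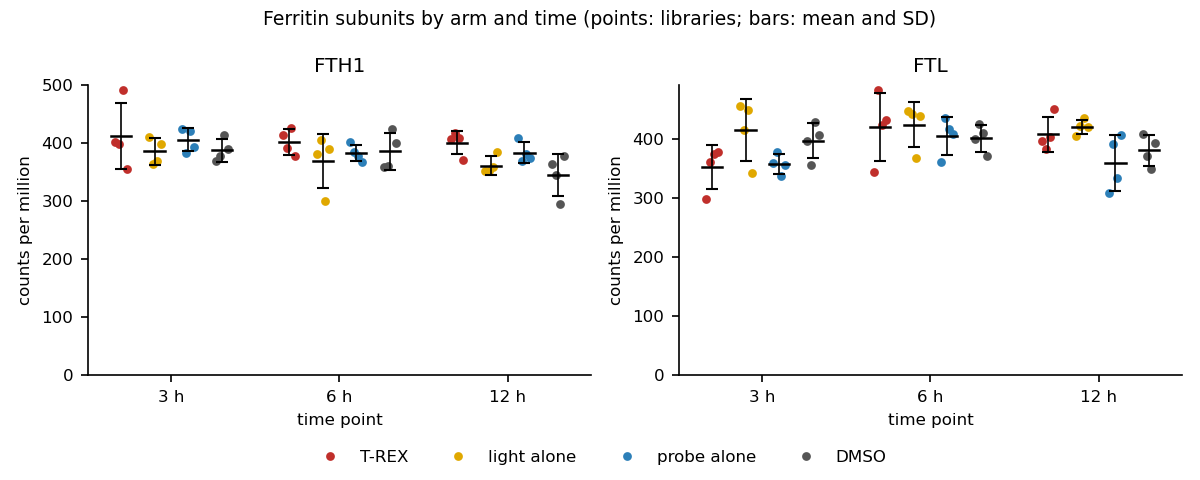
FTH1 and FTL in CPM in each library (points), by arm and time, with mean and SD of each group of 4. The T-REX and DMSO points of FTH1 at 12 h overlap, and FTL spreads widely within the groups, from 344 to 483 CPM in T-REX at 6 h.

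IREB2 (IRP2) and ACO1 (IRP1) encode the proteins that bind the element printed above. IRP2 is controlled by breakdown of the protein, and IRP1 by loss of its iron-sulfur cluster, so neither activity is read by mRNA counts. The IREB2 count was 7.14 ± 0.712 times that of ACO1 within a library (SD, n = 48, not scaled for length). Neither gene was called in any T-REX comparison. The IREB2 log2 fold changes ran from -0.10 against light alone at 3 h to 0.06 against DMSO at 12 h.

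IREB2 was lower at 12 h than at 3 h in every arm. In DMSO it stood at 372, 384, 353 and 388 CPM at 3 h and at 300, 321, 300 and 322 CPM at 12 h. The 2 groups did not overlap, and the log2 fold change was -0.27 ± 0.0479 (edgeR adjusted p = 1.21e-05). Light alone gave -0.25 ± 0.0478 (edgeR adjusted p = 4.8e-05) and probe alone -0.25 ± 0.0478 (edgeR adjusted p = 3.91e-05), also without overlap. T-REX gave -0.14 ± 0.0478 (edgeR adjusted p = 0.0148), with overlap. The T-REX call was lost without T-REX 3 h replicate 1 or 2 or T-REX 12 h replicate 3.

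In T-REX, ACO1 lay below all probe alone libraries at 3 h and below all light alone libraries at 12 h. Its other T-REX comparisons overlapped, and the share of all genes lying apart in this way was not counted. At 3 h T-REX held 44.5, 46.3, 46.6 and 47.4 CPM and probe alone 53.0, 50.7, 53.0 and 49.0 CPM. The log2 fold change was -0.14 ± 0.0547, not called. At 12 h T-REX, at 45.4, 45.6, 46.4 and 43.6 CPM, lay below light alone, at 47.2, 51.8, 51.4 and 46.6 CPM, with a value of -0.12 ± 0.059, not called. From 3 h to 12 h ACO1 fell in probe alone by 0.15 on the log2 scale (SE 0.0556, edgeR adjusted p = 0.0236), and this call was lost without probe alone 3 h replicate 1 or 3 or 12 h replicate 1.

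SLC30A1 (ZnT1), the zinc exporter of the plasma membrane, was called in no T-REX comparison, yet rose with time. In T-REX it stood at 93.3, 97.7, 88.8 and 94.8 CPM at 3 h, 113, 118, 127 and 124 CPM at 6 h and 141, 133, 123 and 154 CPM at 12 h. The 12 h libraries all lay above the 3 h libraries, and the log2 fold change was 0.56 ± 0.0965 (edgeR adjusted p = 1.02e-05). DMSO gave 0.43 ± 0.0966 (edgeR adjusted p = 0.000425) and probe alone 0.37 ± 0.0963 (edgeR adjusted p = 0.00201), without overlap. Light alone gave 0.17 ± 0.0962 (edgeR adjusted p = 0.153), with overlap.

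The T-REX difference for SLC30A1 was -0.16 ± 0.0675 against light alone at 3 h and 0.23 ± 0.0993 at 12 h, neither called. The change between the times was 0.38 ± 0.136, not called.

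MT2A, a small cysteine-rich protein that holds zinc and other metals, was called in no T-REX comparison, and its intervals were wide. At 3 h the T-REX libraries held 69, 88, 194 and 166 counts, or 2.62, 3.19, 6.84 and 6.59 CPM. These fell into a lower and a higher pair, around light alone at 5.12, 4.04, 4.09 and 3.67 CPM. The log2 fold change against light alone was 0.19 with a 95% interval of -0.38 to 0.75. At this depth and spread the interval held differences of either direction.

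From 3 h to 12 h MT2A rose in light alone, by 0.63 ± 0.22 (edgeR adjusted p = 0.0202), with 6.48, 6.68, 6.88 and 6.07 CPM at 12 h and no overlap. In DMSO it rose by 0.61 ± 0.217 (edgeR adjusted p = 0.0217), with overlap. Probe alone gave 0.47 ± 0.217 (edgeR adjusted p = 0.0745) and T-REX 0.42 ± 0.219 (edgeR adjusted p = 0.121). The light alone call was lost without light alone 3 h replicate 4, and the DMSO call without DMSO 3 h replicate 2 or 4 or 12 h replicate 1. MT2A is close in sequence to the MT1 genes, none of which had a row, so its counts could hold or lack reads of these copies.

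Changes between 3 h and 12 h were common in the whole table, with 41.7% of genes called in T-REX, 39.4% in light alone, 42.3% in probe alone and 38.8% in DMSO. Of the 9 members, 2, 3, 4 and 5 were called in these arms, beside those shares of all genes. Time of collection and of library preparation cannot be told apart here.

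**Figure D4:**
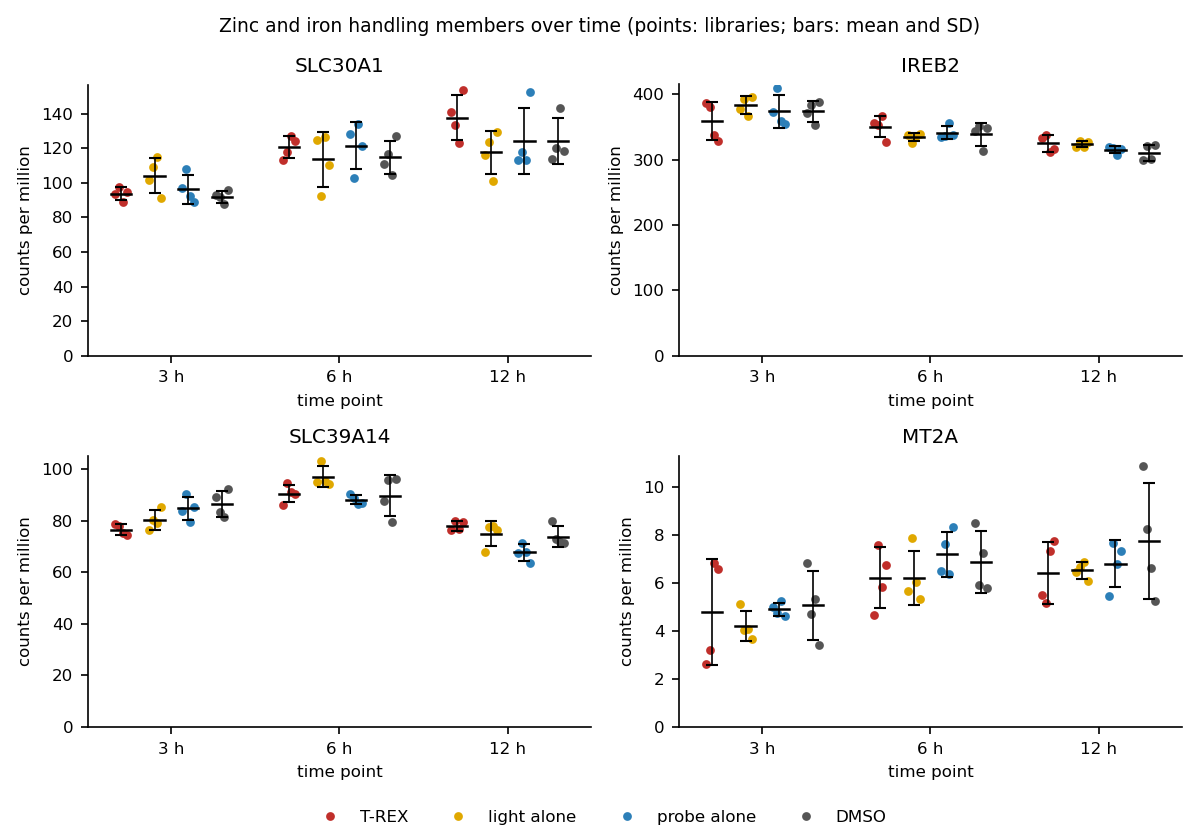
SLC30A1, IREB2, SLC39A14 and MT2A in CPM in each library (points), by arm and time, with mean and SD of each group of 4. SLC30A1 reached 123 to 154 CPM in T-REX at 12 h, and every IREB2 library of the 3 control arms at 12 h lay below every one of its arm at 3 h.

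Across the 9 members, the calls at 3 h numbered 0, 1 and 1 (light alone, probe alone, DMSO), with none at 6 h, and 1, 1 and 2 at 12 h. Of these 6 calls, 5 were TFRC and 1 was FTH1 against DMSO. As a description, the unadjusted edgeR p was at most 0.05 for 3 members against light alone at 3 h, where none was called. It was so for 1 member, TFRC, in each 6 h comparison. There DESeq2 called no member against light alone or probe alone. The median log2 fold change of the members ran from -0.073 to 0.064 over the 9 comparisons, and that of all genes from -0.0019 to 0.031.

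**Figure D5:**
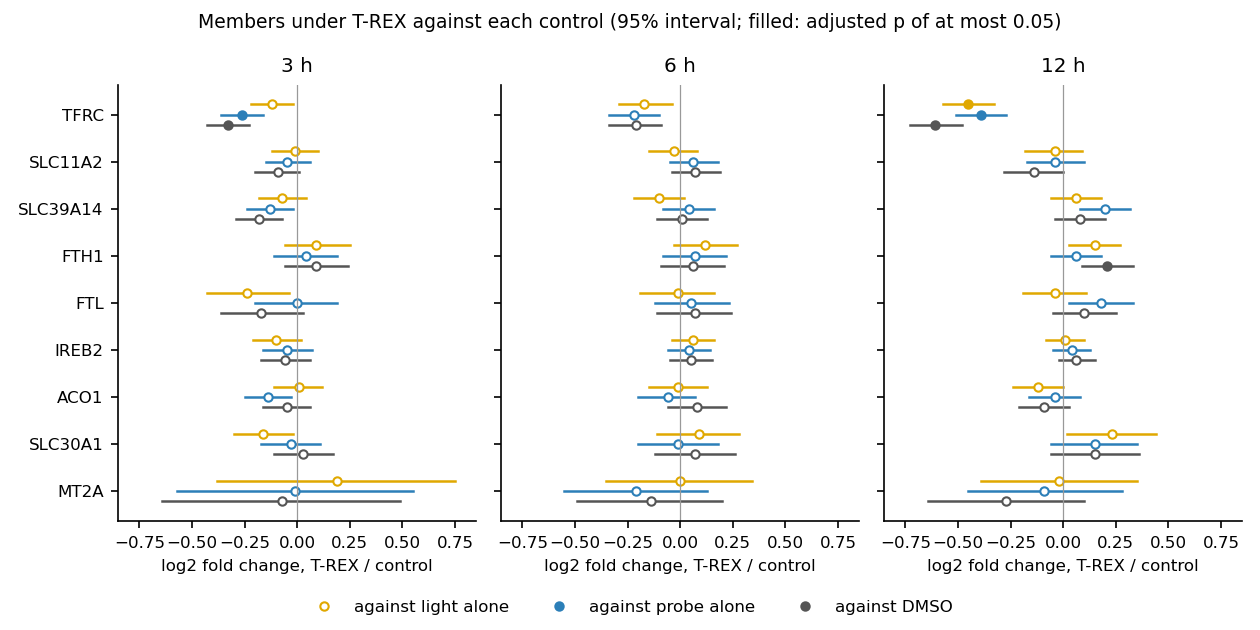
Log2 fold change of T-REX over each control for the 9 members at 3 h, 6 h and 12 h, with 95% intervals, filled where the adjusted p was at most 0.05. TFRC lies left of 0 in all 9 comparisons, and MT2A has the widest intervals.

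The wider pathways were read from lists of 80 further genes in the table. Against light alone edgeR called none at 3 h, 6 h or 12 h, beside 0.197%, 0.218% and 1.29% of all genes, while 12, 6 and 8 had an unadjusted p of at most 0.05 and DESeq2 called 1, 0 and 1. Against probe alone 2 were called lower at 3 h, beside 0.81% of all genes, while 16 passed unadjusted and DESeq2 called 5. None was called against probe alone later, beside 0.109% and 0.701%, where 6 and 8 passed unadjusted and DESeq2 called 0 and 1. Against DMSO, 2 were higher and 6 lower at 3 h, beside 1.45% and 4.54% of all genes. There 23 passed unadjusted and DESeq2 called 11. None was called at 6 h by edgeR or DESeq2 (7 unadjusted), beside 0.415%. At 12 h 2 were higher and 10 lower, beside 4.09% and 6.79% of all genes, while 22 passed unadjusted and DESeq2 called 12.

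SLC39A10, a plasma membrane zinc importer, and CPOX, which makes protoporphyrinogen in haem synthesis, were the 2 listed genes called lower against at least 2 controls, both at 3 h, as were 0.769% of all genes. SLC39A10 stood at 75.2 to 81.6 CPM in T-REX and 94.0 to 101.5 CPM in probe alone, with no overlap. Its log2 fold change was -0.14 ± 0.0557 against light alone (not called), -0.28 ± 0.0556 against probe alone and -0.29 ± 0.0556 with DMSO as the control. CPOX stood at 18.1 to 21.2 CPM in T-REX and 24.7 to 27.1 CPM in probe alone, also with no overlap. For both genes the share of all genes lying apart in this way was not counted. The CPOX values were -0.09 ± 0.0742 (not called), -0.36 ± 0.0739 and -0.28 ± 0.074.

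At 3 h the other listed genes called against DMSO were SLC40A1 (ferroportin, the iron exporter, whose mRNA carries an iron-responsive element), at -0.66 ± 0.18, PCBP2 (-0.13), CIAO2A (-0.24) and SLC39A6 (-0.18), which were lower, and IBA57 (0.23) and SLC25A38 (0.31), which were higher.

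Among 28 genes of iron-sulfur cluster assembly, 5 were lower in T-REX than in DMSO at 12 h, when 6.79% of all genes were: CIAPIN1 (-0.32), ISCA1 (-0.28), CIAO2A (-0.28), NFU1 (-0.30) and GLRX5 (-0.36). Among 14 genes of iron uptake, release and systemic control, HERC2 was higher (0.28) and BMP6 lower (-0.42). Of 18 haem genes, HMOX1, the haem oxygenase that frees iron from haem, was higher (0.70 ± 0.14) and CPOX and PGRMC1 were lower. Of 9 zinc importers, SLC39A4 (-0.82 ± 0.21) and SLC39A10 (-0.30) were lower. None of 7 zinc exporters and none of 5 other mRNAs with a known iron-responsive element was called at 12 h, and MTF1 was called against no control. Genes named in these lists, SLC39A10 and CPOX at 3 h aside, were called against DMSO alone. They were named after their values were seen, and SLC39A10 and CPOX by a rule on their calls in these data. Some also changed within DMSO from 3 h to 12 h, when 38.8% of all genes were called. Those called at 12 h in both were HMOX1 (-0.65), CPOX (0.32), NFU1 (0.41), BMP6 (0.44), SLC39A10 (0.47) and ISCA1 (-0.21). Probe alone against DMSO at 12 h called 5.11% of all genes. The part of DMSO in these differences was not tested.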

How the data were processed

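RNA of transfected HEK293T cells was sequenced as paired ends. The counts per gene were deposited by the authors as whole numbers, 1 table per time point, with log2 CPM and score columns (RUV factors) beside them; reads were demultiplexed with bcl2fastq, and cutadapt, TopHat and Cufflinks are listed by the study for its RNA-seq. Which program gave the counts per gene, and on which build, is not given in the sources used here. The deposited log2 CPM values and the RUV scores of the authors were used only in alternative fits.

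Each time point had its own fit of all its 16 libraries, with the quasi-likelihood test of edgeR 4.0.16 (TMM, filterByExpr, which removed no gene), with Benjamini-Hochberg adjustment over 14685 genes. Genes were called at an adjusted p of at most 0.05. Comparisons between 3 h and 12 h, and changes of a T-REX difference between these times, used 1 fit of 48 libraries. Printed CPM values were scaled with TMM over all 48 libraries. The script was tested on simulated data. Alternatives were DESeq2 1.42.0, RLE factors, no filter, RUV covariates, limma 3.58.1 on log2 CPM, 2 arms alone, a replicate block, and each library left out.

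Members and gene lists were chosen with earlier results of these data known. Named besides the members were NCBP1, listed genes called in 1 direction against at least 2 controls, and the 3 genes most like each member so called. Other listed genes called against DMSO alone were named after their values were seen. Replicates are separate libraries described as biological replicates. Symbols came from a gene name table, with 14648 of 14685 matched.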

Additional observations from a re-analysis of the deposited data

Results flagged for a closer look

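Among 108 groups of 4 libraries, 9 members in 12 groups each, 6 held a library far from the other 3 by Dixon's criterion, and chance gives this in about 1 of 20 groups. In light alone at 6 h, replicate 3 was low for FTL (368 CPM) and high for SLC11A2 (75.1 CPM), and replicate 2 was high for SLC39A14 (103 CPM). In light alone at 12 h, replicate 1 was low for SLC39A14 (67.8 CPM). In probe alone, replicate 3 was high for IREB2 at 6 h (357 CPM) and replicate 4 was high for SLC30A1 at 12 h (152 CPM).

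The T-REX difference of SLC39A14 against probe alone changed by 0.35 on the log2 scale between 3 h and 12 h and was called, as described above. The member was chosen with T-REX results in view, so this value is a description.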

How the results depend on the processing

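No called member changed sign under any alternative. With the RUV factors as covariates the numbers of members called under T-REX rose to 2, 2 and 2 at 3 h (light alone, probe alone, DMSO), 1, 1 and 1 at 6 h and 2, 2 and 3 at 12 h, and those against at least 2 controls to 2, 1 and 2. The same fit called 2 members for light alone against DMSO at 3 h, 1 at 12 h, and 2 for probe alone against DMSO at 12 h. With the 2 arms fitted alone the numbers became 0 for probe alone at 3 h, 1 for probe alone at 6 h, 2, 2 and 1 at 12 h, and 0 against at least 2 controls at 3 h. DESeq2 called 2 against DMSO at 3 h, 1 against DMSO at 6 h, 2 against probe alone at 12 h and 1 for light alone against DMSO at 3 h, and RLE factors 2 against DMSO at 3 h. The causes were not tested.

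Leaving out 1 library gave 0 to 1 members called against probe alone and 1 to 2 against DMSO at 3 h, 0 to 1 against DMSO at 6 h, and 1 to 2, 1 to 2 and 1 to 3 at 12 h. Against at least 2 controls it gave 0 to 1 at 3 h and 1 to 2 at 12 h. It gave 0 to 2 for probe alone against DMSO at 12 h, 1 to 5 for T-REX over time, and 0 to 1 for the change against probe alone. TFRC at 12 h stayed called against all 3 controls in each of these fits.

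Replicate numbers were not treated as pairs in the main fits. Over 72 same-number pairs r had a median of -0.006 and ran from -0.513 to 0.507, with 23 above 0.1. These values do not show that no libraries were paired. With the replicate block, 1 member was called over time in light alone and 3 in DMSO, with TFRC and MT2A lost in both, and ACO1 was lost in probe alone. The block changed no other call.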
